A study of Homo sapiens with 6 samples.

Results

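ID1, ID2, ID3 and ID4 are the 4 genes of the inhibitor of DNA binding family, and they were taken by symbol from a table of 60675 gene identifiers, of which 16996 had enough reads to be tested. They were chosen because all 4 were higher in one group of libraries than in the other, so their difference between the groups is described here and not tested. The libraries came from PANC1, an established human pancreatic cancer line grown in medium with fetal bovine serum. In 3 libraries the cells were wild type (WT) with no treatment. In the other 3 (RARG-KO) the gene of the retinoic acid receptor gamma, RARG, had been targeted with Cas9 and a pair of guide RNAs in transfected, puromycin-selected cells from which clones were expanded. How many clones the RARG-KO libraries came from, and whether replicates were separate cultures, are not stated in the sources used here, so p-values measure only the spread between these libraries. Per its title, the series concerns RARG in the proliferation of pancreatic cancer cells.

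ID proteins have a helix-loop-helix fold that lets them pair with other proteins, but they lack the basic region that touches DNA. They pair with the E proteins, the widely expressed basic helix-loop-helix (bHLH) factors TCF3, TCF4 and TCF12, and keep them from binding E-box sites together with tissue-restricted bHLH factors. ID genes are well-known direct targets of bone morphogenetic protein (BMP) signalling through SMAD1, SMAD5 and SMAD9 with SMAD4, and they are associated with proliferating and undifferentiated cells.

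Libraries held 29386408 to 31608089 counts, with 3.87% to 4.0% (WT) and 5.19% to 5.37% (RARG-KO) from mitochondrially encoded genes. Levels are given in CPM, counts scaled to library size with TMM factors, as the mean ± SD over 3 libraries, and log2 fold changes, RARG-KO over WT, as the fitted value ± SE. The targeted gene, RARG, was at 40.4 ± 1.28 CPM (WT) and 27.0 ± 2.53 CPM (RARG-KO), so 66.8% of its mRNA count remained. A count over the whole gene does not show the deleted part. Of the genes tested, 58.0% differed between the groups by the quasi-likelihood test of edgeR at an adjusted p under 0.05, 28.7% higher and 29.3% lower in RARG-KO. Ductal epithelial markers were present in both groups but lower in RARG-KO. The 6 of them summed to 2900 to 2965 CPM in WT and 1283 to 1361 CPM in RARG-KO, with 5 lower and CDH1 higher. Of 6 fibroblast markers, COL1A1 and THY1 were tested and both rose, for a sum of 101 to 105 CPM in WT and 208 to 221 CPM in RARG-KO, while DCN had 0 reads in all libraries and LUM 2 and 5 reads in the groups. Among leukocyte markers PTPRC had 6 and 1 reads in the groups, and CD74 (higher) and CD14 (lower) were tested, with a sum of 1.63 to 1.70 CPM in WT and 1.88 to 2.47 CPM in RARG-KO. The call of CD14 was lost without WT replicate 1 (adjusted p = 0.0523 by edgeR), WT replicate 3 (0.0604) or RARG-KO replicate 2 (0.118), and with DESeq2 (0.0887). Of the endothelial markers, 1 of 6, KDR, was tested and rose, at 1.3 to 1.6 CPM in WT and 5.15 to 5.81 CPM in RARG-KO. Of the untested ones, VWF had 28 WT and 3 RARG-KO reads, PECAM1 7 and 2, CDH5 0 and 3, TEK 0 and 4 and CLDN5 2 and 2. The part of the epithelial and fibroblast markers in the values of the ID genes was not tested.

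The ID genes lie on different chromosomes, and no ID gene neighbours another. In GENCODE release 29 on GRCh38, ID1 (ENSG00000125968) spans chr20:31605283-31606515 on the plus strand, ID2 (ENSG00000115738) chr2:8678845-8684453 on the plus strand, ID3 (ENSG00000117318) chr1:23557918-23559794 on the minus strand and ID4 (ENSG00000172201) chr6:19837386-19840684 on the plus strand. All are protein-coding, with 1233, 2205, 1797 and 2344 bases of exon. Exons of ID2 overlap those of ID2-AS1, a transcript of the other strand, and exons of the other 3 overlap no annotated gene of the other strand. ID2B, annotated under a related name, had 0 reads in every library.

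The sequences around the transcription starts are shown because the members were higher together, while the exact core letters marked below differ between these sequences. Each runs from 250 bases before the RefSeq start to 30 bases after it (GRCh38.p14), 5′ to 3′ on the strand of the gene. They are chr20:31605039-31605318 for ID1, chr2:8681806-8682085 for ID2, chr1:23559472-23559751 (minus strand) for ID3 and chr6:19837120-19837399 for ID4, and the RefSeq start of ID2 lies inside the span that GENCODE gives. Capitals mark the CCAAT box, the TATA box as TATAAA, and the letters AGGTCA at the core of retinoic acid receptor sites, on either strand.
ID1: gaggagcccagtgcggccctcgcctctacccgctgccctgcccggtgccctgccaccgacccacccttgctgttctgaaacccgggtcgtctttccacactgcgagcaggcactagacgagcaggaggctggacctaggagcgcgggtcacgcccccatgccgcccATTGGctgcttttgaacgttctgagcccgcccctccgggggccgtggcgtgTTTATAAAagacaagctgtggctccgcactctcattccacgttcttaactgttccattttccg
ID2: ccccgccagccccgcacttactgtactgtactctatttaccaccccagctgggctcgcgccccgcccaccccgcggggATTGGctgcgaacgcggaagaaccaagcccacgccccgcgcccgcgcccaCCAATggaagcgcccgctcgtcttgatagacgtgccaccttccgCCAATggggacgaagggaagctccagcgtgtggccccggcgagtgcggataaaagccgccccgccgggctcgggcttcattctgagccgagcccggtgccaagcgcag
ID3: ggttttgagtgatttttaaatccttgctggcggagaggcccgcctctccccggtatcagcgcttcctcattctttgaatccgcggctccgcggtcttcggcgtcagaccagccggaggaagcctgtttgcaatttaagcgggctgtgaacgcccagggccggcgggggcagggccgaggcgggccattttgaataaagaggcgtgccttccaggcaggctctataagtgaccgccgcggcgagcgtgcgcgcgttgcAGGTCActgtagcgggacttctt
ID4: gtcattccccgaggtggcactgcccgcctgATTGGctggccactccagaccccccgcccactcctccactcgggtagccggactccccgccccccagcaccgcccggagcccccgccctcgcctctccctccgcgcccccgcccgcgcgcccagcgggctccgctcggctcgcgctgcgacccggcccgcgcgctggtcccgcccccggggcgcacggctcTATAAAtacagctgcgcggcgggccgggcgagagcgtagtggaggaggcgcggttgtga

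As the letters scanned, only the short GTCT of SMAD binding was shared by all 4 of these windows. On either strand, 81.7% of 35116 RefSeq promoters of the same length held it. Variants were not counted, such as the TATA-like GATAAA in ID2 and TATAAG in ID3, or GGGTCA, close to AGGTCA, in ID1. CCAAT occurred once in ID1, 3 times in ID2 and once in ID4, but not in ID3, and 33.6% of all promoters held it. TATAAA occurred in ID1, where matches on both strands overlap from base -33 on, and in ID4 at base -29, counted from the start, against 11.2% of all promoters. The AGGTCA core occurred in ID3 alone, from base 8 after the start, and in 13.1% of all promoters. CANNTG, the E-box that bHLH factors bind, occurred in ID2 at base -205 and in ID4 at base -21 (66.2% of all promoters). GGGCGG, the GC box, occurred 2 times in ID1, 2 times in ID2 and 6 times in ID4 (44.1% of all promoters). GGCGCC, a GC-rich SMAD site of BMP-responsive genes, was found in no ID window and in 18.0% of all promoters, and GCGTGGGCG, an EGR site, in no ID window and in 0.775%. Sites farther from the start than these windows reach were not scanned, so their absence here does not bear on more distant elements. GC content was 63.2% in ID1, 68.9% in ID2, 61.4% in ID3 and 77.1% in ID4, against a median of 58.2% over all promoters (quartiles 46.8% and 67.9%).

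ID1 was the most abundant family member in both groups. WT replicates 1, 2 and 3 were at 174, 182 and 170.2 CPM, and RARG-KO replicates at 445, 440.0 and 439 CPM. The groups were far apart, with the lowest RARG-KO library 2.41 times the highest WT library. The means, 175 ± 5.91 and 441 ± 3.15 CPM, differed by 1.33 ± 0.03 on the log2 scale. Added transcripts amounted to 266 CPM, the most of any member, although ID1 had the lowest fold change of the family.

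ID3 was second in level. WT libraries 1, 2 and 3 had 37.4, 41.7 and 36.5 CPM, and RARG-KO libraries 282, 272 and 298 CPM. No libraries of the groups overlapped, and the lowest RARG-KO library was 6.52 times the highest WT library. The means of 38.5 ± 2.76 and 284 ± 13.5 CPM gave a log2 difference of 2.88 ± 0.05 and an increase of 246 CPM, close to that of ID1.

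ID2, which beside E proteins binds the retinoblastoma protein, was low in WT. Its WT replicates 1, 2 and 3 were at 3.74, 4.07 and 4.22 CPM, from 108, 122 and 127 reads, and its RARG-KO replicates at 44.7, 48.0 and 47.6 CPM, from 1430, 1474 and 1496 reads. The groups were separated by a factor of 10.6 between the nearest libraries. From a mean of 4.01 ± 0.249 CPM to one of 46.8 ± 1.82 CPM, the log2 difference was 3.54 ± 0.08. ID2-AS1, on the other strand, went from 0.406 ± 0.095 to 1.83 ± 0.343 CPM (log2 2.16 ± 0.29). With 14, 9 and 13 reads in WT replicates 1, 2 and 3, ID2-AS1 passed the filter on low counts through its RARG-KO libraries only. The strand setting of the counting is not stated in the sources used here, so reads of ID2 and ID2-AS1 could be mixed. The 36 WT reads of ID2-AS1 were 10.1% of the ID2 reads, and its 172 RARG-KO reads were 3.91%.

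ID4 was close to the limit of detection in WT, with 2, 3 and 6 reads in replicates 1, 2 and 3 (0.0692, 0.10 and 0.20 CPM), where 3 reads, the floor used here, make about 0.1 CPM. RARG-KO replicates 1, 2 and 3 had 87, 98 and 74 reads (2.72, 3.19 and 2.35 CPM). Every RARG-KO library lay above every WT library, at 11.8 times between the nearest. From 11 reads against 259, the ratio was 22.4 with a 95% counting interval of 12.2 to 45.1, and the fitted log2 fold change was 4.43 ± 0.34. ID4 passed the filter on low counts through its RARG-KO libraries only, so a difference was a condition of its being tested. The other 3 members passed on their WT libraries alone.

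**Figure D1:**
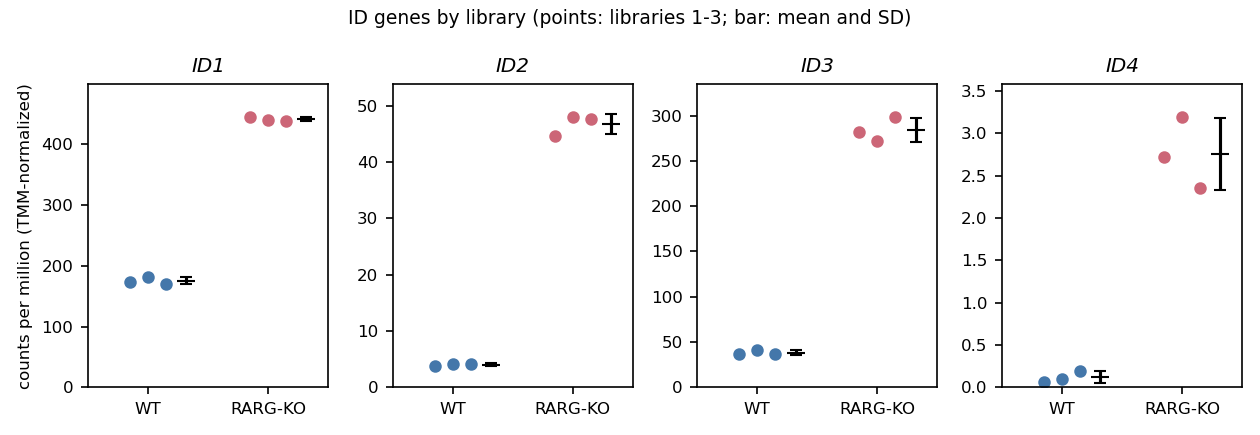
TMM-normalized CPM (y axis, from 0, with its own scale in each panel) of ID1, ID2, ID3 and ID4 in WT and RARG-KO libraries (points, replicates 1 to 3 from left to right), with the mean and SD of each group at its right. The groups do not overlap in any panel; ID1 goes from 175 to 441 CPM and ID4 from 0.123 to 2.75 CPM.

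Fold changes ran in the reverse order of the WT levels: 2.52-fold for ID1, 7.37-fold for ID3, 11.7-fold for ID2 and 22.4-fold for ID4, as ratios of mean CPM. Of the 4876 genes called higher in RARG-KO, 469 had a larger log2 fold change than ID1, 119 than ID3, 77 than ID2 and 49 than ID4. Called genes at least 2-fold higher made up 4.88% of the genes tested, and genes whose groups of libraries did not overlap made up 62.6% (31.5% higher and 31.1% lower in RARG-KO). These shares stand beside the members for scale only, since the members were picked from this contrast.

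Scaled to exon length, as CPM per kilobase of exon, levels of the family kept their order, and neighbours in that order did not overlap in either group. ID1 had 138 to 147 in WT and 356 to 361 in RARG-KO, and ID3 20.3 to 23.2 and 151 to 166. ID2 was at 1.69 to 1.92 and 20.3 to 21.8, and ID4 at 0.0295 to 0.0852 and 1.00 to 1.36. The makeup of the family's mRNA was therefore different in the groups. ID1 made up 85.9% ± 0.41 of the summed per-length level in WT and 66.5% ± 0.99 in RARG-KO. ID3 made up 12.9% ± 0.43 and 29.4% ± 1.04, and ID2 1.10% ± 0.08 and 3.94% ± 0.17. ID4 stayed the smallest part, at 0.0320% ± 0.019 and 0.219% ± 0.036.

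The sum over the 4 genes was 164, 173 and 160.3 CPM per kilobase in WT replicates 1, 2 and 3 against 539, 531 and 545 in those of RARG-KO, a 3.25-fold difference of the means. The same sum over the E-protein genes TCF3, TCF4 and TCF12, the binding partners, was 27.1, 26.9 and 27.5 in WT and 31.9, 30.5 and 31.2 in RARG-KO, 1.15-fold higher. ID mRNA thus outweighed E-protein mRNA per length 6.10 ± 0.289 times in WT and 17.3 ± 0.303 times in RARG-KO. These are mRNA levels, and protein levels were not measured. Length was that of all annotated exons of a gene merged, which can exceed that of any 1 mRNA. The size of the ratio of ID to E-protein mRNA depends on this choice. In a bulk library, more cells that express a gene and more RNA of it per cell cannot be told apart.

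E-protein genes moved in both directions and, for the abundant ones, by little. TCF3, which encodes E12 and E47, rose from 87.8 ± 1.24 to 120.0 ± 4.35 CPM (log2 0.45 ± 0.04; adjusted p = 2.39e-09 by edgeR). TCF12, the gene of HEB, fell from 120.1 ± 3.47 to 108 ± 4.47 CPM (log2 -0.16 ± 0.04; adjusted p = 0.00186 by edgeR), a call lost when the median of the neighbouring genes was removed (adjusted p = 0.0515 by edgeR). TCF4, the gene of E2-2, rose from 0.203 ± 0.038 to 1.24 ± 0.242 CPM (log2 2.59 ± 0.36), and it passed the filter through its RARG-KO libraries only. Of the other pair, which passed the filter on WT libraries alone, 1 rose and 1 fell. Among all genes tested, 28.7% were higher and 29.3% lower, so counts over so few genes say little.

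Few of the tissue-restricted bHLH factors that E proteins pair with were expressed. Of 28 listed genes, 21 had too few reads to be tested, among them the pancreatic factors PTF1A, NEUROG3 and NEUROD1 and the mesenchymal factor TWIST1, each with 0 reads in all 6 libraries. Of the 7 tested, 1 rose, 3 fell and 3 did not pass the test, with a median log2 fold change of -0.33 against 0.01 over all genes tested. That share of called genes is near the 58.0% of all genes tested. The rise was that of ATOH8, a BMP-induced bHLH gene, from 5.52 ± 0.53 to 55.9 ± 0.95 CPM (log2 3.34 ± 0.07; adjusted p = 6.02e-19 by edgeR). TWIST2 (-2.20 ± 0.27), MSC (-2.57 ± 0.62) and SCX (-1.0 ± 0.36) fell from WT levels of at most 3.48 CPM. MSC and SCX passed the filter on low counts through their WT libraries only. The call of SCX, at an adjusted p of 0.0219 by edgeR, was lost without WT replicate 2 (0.146) or RARG-KO replicate 2 (0.108), relative to its neighbours (0.296) and with DESeq2 (just under 0.1). MSC overlaps MSC-AS1, which had 80.2% as many reads.

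The HES, HEY and BHLHE40 genes encode bHLH repressors that bind DNA themselves. Among 10 tested of 11, there were 3 rises, 3 falls and 4 genes not past the test, close to the 28.7% higher and 29.3% lower of all genes, and the median log2 was -0.19. HES2 fell from 43.7 ± 2.55 to 4.57 ± 0.42 CPM, BHLHE40 by a log2 of -1.19 ± 0.04, and HES1, the main Notch effector, by -0.64 ± 0.07. HEY2 (2.41 ± 0.22), HEY1 (0.67 ± 0.16) and BHLHE41 (0.31 ± 0.08) rose. HES4, HES6 and HEYL, named after their values were seen, did not pass but did so under some alternatives. Without WT replicate 1, HES4 (adjusted p = 0.000201 by edgeR) and HES6 (0.0278) passed as lower. With upper-quartile factors, HEYL passed as higher (0.0344).

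BMP ligand genes went in both directions. The share called, 3 of 6, was near the 58.0% of all genes tested. Of 6 tested of 12, BMP4 fell from 35.8 ± 2.37 to 14.9 ± 0.204 CPM (log2 -1.26 ± 0.07; adjusted p = 1.05e-12 by edgeR) and BMP6 by a log2 of -0.38 ± 0.05, while BMP5 rose from 7.51 ± 0.63 to 16.2 ± 0.77 CPM (1.11 ± 0.09). BMP2 (-0.71 ± 0.36), BMP7 (0.14 ± 0.10) and BMP8B (0.07 ± 0.11) did not pass. BMP2 passed without WT replicate 3 (adjusted p = 0.0485 by edgeR), and both BMP2 (log2 -1.13) and BMP7 (0.61) passed with the median of neighbouring genes removed, which brought the count of called ligands from 3 to 5. BMP8B overlaps PPIE, with 728% of its reads, so its value is uncertain.

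Of 11 receptor and co-receptor genes, 10 were tested, of which 3 rose, 4 fell and 3 were not past the test (median log2 -0.06), beside 28.7% higher and 29.3% lower among all genes. BMPR1B, a type I receptor gene, rose from 1.27 ± 0.505 to 7.91 ± 0.325 CPM (log2 2.65 ± 0.18; adjusted p = 4.94e-11 by edgeR). ENG, the gene of endoglin, rose by 0.63 ± 0.06 and ACVR2B by 0.62 ± 0.09. RGMB, a co-receptor gene that overlaps RGMB-AS1 (14.2% as many reads), fell by -0.91 ± 0.07, RGMA by -1.28 ± 0.37, and the type I receptor gene BMPR1A by -0.20 ± 0.05. BMPR2, the type II receptor gene, was at 0.08 ± 0.04 and did not pass. It passed as higher without RARG-KO replicate 3 (adjusted p = 0.0189 by edgeR), with upper-quartile factors (0.0109), relative to its neighbours (0.00472) and with the GC and length trend removed (0.00295). Relative to its chromosome neighbours (median -0.77), BMPR1A had the opposite sign, 0.58 (adjusted p = 1.55e-09 by edgeR).

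Of the SMADs, the most abundant, SMAD5, had 104 ± 3.93 CPM in WT and 102 ± 5.85 CPM in RARG-KO (log2 -0.03 ± 0.04), and SMAD1 was at -0.04 ± 0.08. Neither passed the test, though SMAD5 did relative to its neighbours (log2 -0.15, adjusted p = 0.00579 by edgeR). SMAD9, the third BMP-activated SMAD and itself a BMP target, rose from 0.989 ± 0.097 to 13.2 ± 0.63 CPM (log2 3.74 ± 0.13; adjusted p = 1.06e-15 by edgeR). SMAD4, the partner shared with TGF-beta signalling, rose from 32.3 ± 0.347 to 43.9 ± 0.652 CPM (0.44 ± 0.05).

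Target genes of BMP signalling other than the ID genes included the SMAD and bHLH genes with the largest rises above. Of 16 tested of 18, 10 rose, 4 fell and 2 did not pass, beside 28.7% and 29.3% of all genes tested. Their median log2 was 0.69, against 0.01 over all genes tested. This list, like the others, was set with earlier results of these data known, so its counts and median are description only. All 16 passed the filter on their WT libraries alone. SMAD9 and ATOH8 had the largest log2 values of the list. SMAD6, the gene of an inhibitory SMAD, rose from 9.89 ± 1.10 to 33.5 ± 2.86 CPM (log2 1.76 ± 0.08; adjusted p = 1.81e-13 by edgeR). Among homeobox genes, named after their values were seen, DLX2 (1.75 ± 0.10), DLX3 (1.16 ± 0.10), DLX1 (0.91 ± 0.09) and MSX2 (0.70 ± 0.07) rose. MSX1 (-0.28 ± 0.19) did not pass, and DLX5, with 0 WT and 3 RARG-KO reads, was not tested. BAMBI, which encodes a decoy receptor, fell from 2.12 ± 0.586 to 0.381 ± 0.157 CPM (-2.46 ± 0.32), GATA3 by -0.79 ± 0.09, JUNB by -0.49 ± 0.05 and RUNX2, also named after its value was seen, by -0.35 ± 0.07. JUNB overlaps HOOK2 on the other strand, which had 25.8% as many reads. SMAD7, the other inhibitory SMAD gene, was at 0.12 ± 0.07 and did not pass, and relative to its neighbours it was at -0.25 (adjusted p = 0.00354 by edgeR). It passed as higher without RARG-KO replicate 2 (0.0227) and with the GC and length trend removed (0.0214).

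Antagonists and inhibitors of BMP signalling went in both directions, with 6 rises, 7 falls and 3 genes not past the test among 16 tested of 24 (median log2 -0.07). Among all genes tested, 28.7% rose and 29.3% fell. SMAD6, SMAD7 and BAMBI are both on this list and on that of BMP targets. GREM1, a secreted BMP antagonist, fell from 1.23 ± 0.26 to 0.0213 ± 0.018 CPM. It passed the filter on low counts through its WT libraries only. With 110 WT reads and 2 RARG-KO reads, the WT level was 58.0 times higher, with a 95% counting interval of 15.7 to 485. PMEPA1, a TGF-beta-induced inhibitor, fell from 229 ± 0.805 to 82.5 ± 1.21 CPM (-1.47 ± 0.03), and the ubiquitin ligase genes SMURF2 and SMURF1 by -0.55 ± 0.05 and -0.41 ± 0.04. SMURF2 overlaps CEP95 (30.5% as many reads) and SMURF1 overlaps TRRAP (153%). FSTL1 rose from 6.19 ± 0.371 to 71.9 ± 2.47 CPM (3.54 ± 0.07) and the repressor gene SKI by 0.64 ± 0.04. NOG, the gene of noggin, had 14.4 ± 0.403 CPM in WT and 16.4 ± 0.397 CPM in RARG-KO (0.19 ± 0.07; adjusted p = 0.0257 by edgeR). The call of NOG was lost relative to its neighbours (0.922), with DESeq2 (0.129), with no filter on low counts (0.0619), and without WT replicate 2 (0.102), WT replicate 3 (just over 0.05) or RARG-KO replicate 1 (0.0734).

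**Figure D2:**
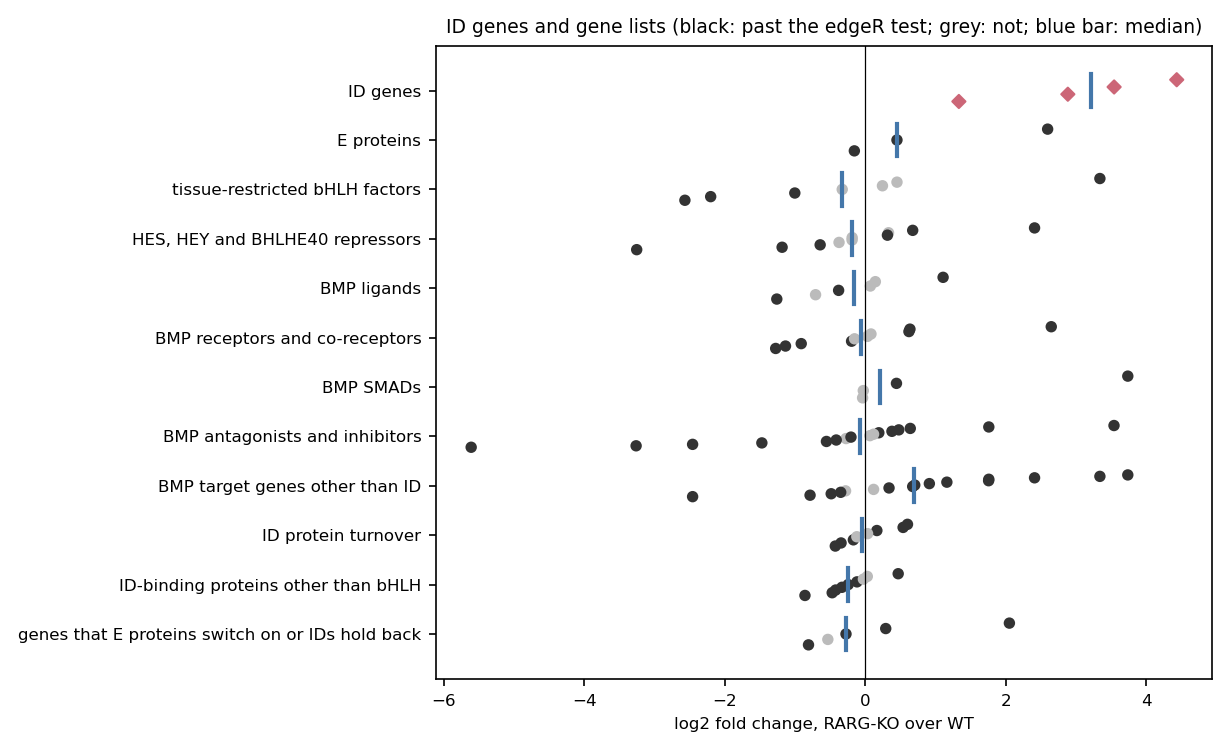
Log2 fold changes, RARG-KO over WT (x axis), of the ID genes (red diamonds) and of the tested genes of each list (rows), black where past the edgeR test and grey where not, with the median as a blue bar. BMP target genes other than ID have a median of 0.69, while the medians of ligands, receptors and antagonists lie between -0.16 and -0.06. All lists were set with earlier results of these data known. Genes on several lists, such as SMAD6, SMAD9, ATOH8 and HEY2, appear in each of those rows. The row of ID protein turnover also holds genes with other links to ID proteins. The last row holds genes linked to E proteins or ID proteins, not split by the direction of that regulation.

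Of 8 genes listed for ID protein turnover or other links to ID proteins, 3 rose, 3 fell and 2 were not past the test. Their median log2 was -0.05, and 58.0% of all genes tested were called. USP1, which removes ubiquitin from ID proteins, fell from 159.8 ± 4.36 to 142 ± 10.9 CPM (log2 -0.17 ± 0.04; adjusted p = 0.00241 by edgeR), while its cofactor gene WDR48 rose by 0.54 ± 0.05. VHL rose by 0.60 ± 0.04 and FZR1, an activator of the anaphase-promoting complex, by 0.16 ± 0.05, a call lost relative to its neighbours (log2 0.11, adjusted p = 0.0795 by edgeR). COPS5 fell by -0.43 ± 0.04 and DYRK1B by -0.35 ± 0.04, but relative to neighbouring genes they were at 0.19 and 0.37 and past the test. WDR48, FZR1 and COPS5 overlap genes of the other strand with 85.8%, 215% and 27.9% of their reads, so these small changes are uncertain.

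Of 9 tested genes of other ID-binding proteins, 6 fell, 1 rose and 2 did not pass (median log2 -0.24), beside 29.3% lower and 28.7% higher of all genes. PAX2 fell by -0.86 ± 0.06, ELK4 by -0.47 ± 0.05 and ELK3 by -0.24 ± 0.04, and RBL2, a retinoblastoma-family gene, rose by 0.47 ± 0.06. RBL2 overlaps AKTIP, with 81.7% of its reads. RB1, named here after its value was seen because its protein binds ID2, had 73.6 ± 1.28 CPM in WT and 67.8 ± 5.29 CPM in RARG-KO (log2 -0.12 ± 0.05). Its edgeR adjusted p of 0.0461 went up to between 0.0539 and 0.308 on leaving out any 1 library other than RARG-KO replicate 2, to 0.366 relative to its neighbours and to 0.0789 with DESeq2.

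Genes listed for their links to E proteins or ID proteins did not move one way, and the list was not split by the direction of that regulation. CDKN1A, which encodes the cell-cycle inhibitor p21 and is a classic E-protein target, fell from 149.9 ± 2.33 to 85.5 ± 1.99 CPM (log2 -0.81 ± 0.04; adjusted p = 6.77e-14 by edgeR). THBS1, the gene of thrombospondin 1, fell by -0.28 ± 0.04. CDKN1B rose by 0.29 ± 0.05, and CDH1, the gene of E-cadherin, by 2.05 ± 0.12. CDKN1C (-0.53 ± 0.26) did not pass, but it did without WT replicate 1 (adjusted p = 0.0443 by edgeR) or RARG-KO replicate 2 (0.0181) and relative to its neighbours (0.0344). CDKN2A and CDKN2B, of the locus of p16, had 0 reads in all libraries. Of the 5 tested, 2 rose and 2 fell (28.7% and 29.3% of all genes), with a median log2 of -0.28.

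Few genes around the ID genes were as much higher in RARG-KO as the ID genes themselves. The members were chosen for their rise, so this outcome followed largely from the choice and is given as description. Over all 16996 genes tested, only 469 called genes lay above ID1, 77 above ID2, 119 above ID3 and 49 above ID4. For ID2, ID3 and ID4, no neighbouring gene had as large a log2 fold change, among 34, 40 and 40 tested protein-coding genes, up to 20 on each side. ID1 had 1 such neighbour of 40, THBD, at 1.76. The neighbours' median log2 was 0.03 around ID1, -0.01 around ID2, 0.08 around ID3 and 0.11 around ID4. Around ID1 the sides differed, with a median of 0.41 over the 20 genes before it and -0.37 over the 20 after it.

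Of the tested genes nearest to each ID gene, by the order of their lower coordinates, some rose and some fell. After ID1, BCL2L1, which encodes the survival factor BCL-XL and lies 59.2 kb away, fell from 233 ± 1.21 to 112 ± 6.51 CPM, and BCL2L1-AS1 by a log2 of -1.64 ± 0.49. Before ID1, HM13-IT1 (-0.19 ± 0.25) and MCTS2 (-0.05 ± 0.12) did not pass. Beside ID2 and ID2-AS1, RNF144A fell by -0.44 ± 0.07, KIDINS220 (0.08 ± 0.04) did not pass and MBOAT2 rose by 0.63 ± 0.07. A lincRNA gene 8.78 kb before ID3, ENSG00000235052, rose by 1.16 ± 0.28, and E2F2, RPL11 and ELOA by 0.21 ± 0.06, 0.18 ± 0.04 and 0.10 ± 0.04. Beside ID4, LNC-LBCS rose by 1.33 ± 0.22, RNF144B by 0.99 ± 0.10 and MBOAT1 by 0.28 ± 0.11, while E2F3 fell by -0.51 ± 0.04 (adjusted p under 0.05 by edgeR for each gene said to rise or fall).

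**Figure D3:**
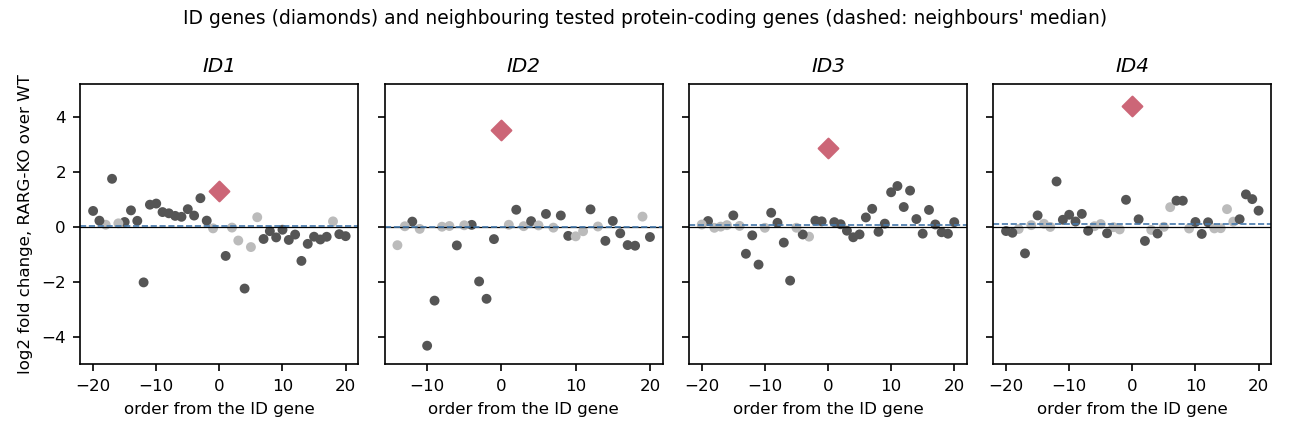
Log2 fold change, RARG-KO over WT (y axis), of each ID gene (red diamond) and of up to 20 tested protein-coding genes on each side in chromosome order (x axis), dark where past the edgeR test and light where not; the dashed line is the neighbours' median. ID2, ID3 and ID4 lie above all of their neighbours, and ID1 above all but 1, which their choice by rise made likely.

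Likeness of pattern was measured as the Euclidean distance over the 6 libraries between log2 CPM values centred on the WT mean, among 10725 other protein-coding genes of average log2 CPM of at least 2. Since the groups differ strongly, this distance mostly reflects a similar fold change. Closest to ID1 were the chemokine gene CCL2 (distance 0.0629, from 30.8 ± 1.29 to 76.2 ± 0.856 CPM), CCDC106 (0.101) and NES, the gene of the filament protein nestin (0.128). Closest to ID2 were PADI2, which encodes a peptidylarginine deiminase (0.231), FSTL1 of the list of BMP antagonists and inhibitors (0.280) and the adaptor gene SHC3 (0.285). The genes most like ID3 were MYO1D, of an unconventional myosin (0.182), the transcription factor gene FOXP1 (0.227) and SLC2A12, of a glucose transporter (0.254), which overlaps TBPL1 with 208% of its reads. ID4, with few reads in WT, had more distant neighbours in pattern: GABRA3, of a GABA receptor subunit (0.363), the cAMP phosphodiesterase gene PDE4D (0.546) and the protocadherin gene PCDH18 (0.736).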

How the data were processed

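Total RNA of PANC1 cells was sequenced in 6 libraries, 3 WT and 3 RARG-KO, grouped by sample title. The authors deposited 1 table of raw read counts per gene, which are whole numbers. HISAT2 2.1.0, Bowtie2 2.2.3, featureCounts and DESeq2, with GRCh38 and hg38, are named per the submitters' processing notes. Their roles, the annotation and the strand setting are not stated in the sources used here. Totals were 29386408 to 31608089 counts, and replicates of a group differed by more than sampling noise (chi-square per degree of freedom 2.14 to 5.14), so each library was 1 replicate.

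All genes were fitted with edgeR 4.0.16 (glmQLFit, glmQLFTest) in R 4.3.3, with TMM factors, filterByExpr at its defaults (16996 of 60675 genes kept), a model with group alone and p-values adjusted over all genes by Benjamini and Hochberg (threshold 0.05). The SE is the absolute log2 fold change divided by the square root of F. The script was tested on simulated data. Intervals and floors of read counts cover counting error only. Symbols came from a table of gene names and GENCODE release 29, which also gave positions and exon lengths (GRCh38), and promoters from RefSeq (GRCh38.p14), matched for all 4 ID genes by symbol. Protein sequences were not used here.

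The members, lists and motifs were chosen with earlier results of these data known. Named genes were RARG, the ID genes, all tested E-protein, SMAD and BMP ligand genes, and the tested genes listed for links to E or ID proteins. A panel of 10 was added (GREM1, NOG, BAMBI, SMAD6, SMAD7, BMPR1A, BMPR1B, BMPR2, HES1 and TWIST1). So were up to 3 rising and 3 falling genes of each other list by adjusted p. The nearest tested genes (2 on each side) and the 3 genes most like each ID gene were also named. Alternatives were RLE and upper-quartile factors, no filter, DESeq2 1.42.0, a replicate block, each library left out, and removal of the median of neighbouring genes or of a GC and length trend (mgcv).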

Additional observations from a re-analysis of the deposited data

How the results depend on the processing

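All 4 ID genes were higher in RARG-KO under all 13 alternatives run. Their log2 fold changes without 1 library each ranged from 1.31 to 1.36 for ID1, 3.49 to 3.58 for ID2, 2.85 to 2.94 for ID3 and 4.16 to 4.95 for ID4, the last from 2 to 6 reads per WT library. Under the other settings they ranged from 1.30 to 1.37, 3.54 to 3.58, 2.80 to 2.92 and 4.32 to 4.47. With the replicate block, 9258 genes were called against 9854 without it. Same-numbered libraries of the groups did not deviate together (correlations -0.01, -0.26 and -0.10), so the numbers were not taken as pairs, and with the block the call of RB1 was lost (adjusted p = 0.0849 by edgeR) and that of HES4 gained (0.0466). Counts of called genes per list stayed within 1.5 times except for BMP ligands, with 5 called when the median of neighbouring genes was removed. That setting turned the sign of BMPR1A (0.58), SMAD7 (-0.25), COPS5 (0.19), HUWE1 (-0.12), DYRK1B (0.37), RBL1 (0.051) and CAV1 (0.084). Of 98 single genes recomputed under these alternatives, 72 kept their call under every alternative that gave them a value. Depth limits the values of ID4, TCF4 and GREM1, which had few reads in 1 of the groups. ID4, TCF4 and ID2-AS1, higher in RARG-KO, passed the filter on low counts through their RARG-KO libraries only. GREM1, MSC, SCX, RGMA, BAMBI, CD14 and BCL2L1-AS1, lower in RARG-KO, passed it through their WT libraries only.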
